A study of Mus musculus with 90 samples.

Results

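The 10 genes described here belong to the MHC class I presentation pathway and were followed in mouse tissues after injection of astatine-211, a radionuclide that emits alpha particles. They were the heavy chains H2-K1 and H2-D1, their light chain B2m, the peptide transporter subunits Tap1 and Tap2, the loading factor Tapbp, the immunoproteasome subunits Psmb8, Psmb9 and Psmb10, and the transcriptional regulator Nlrc5. The genes were chosen by symbol, with earlier results of these data known, and all 10 were on the array, among 16593 genes in all. They were represented by 15 of its 25697 probes. All tissue came from Balb/c mice 24 h after an intravenous injection, and 5 tissues (lung, liver and spleen, and the cortex and medulla of the kidney) were each measured at 0, 0.064, 0.64, 1.8, 14 and 42 kBq of 211At. With 3 arrays per group this made 90 single-colour Illumina bead arrays in 30 groups, hybridised with biotin-labelled total RNA from frozen tissue. The study set the transcriptional response of these tissues to low activities side by side. The labels name 211At as the nuclide for the 0 kBq groups too, and give nothing else that was injected into them. They do not say whether the 3 arrays of a group were separate animals or pools, so the p-values speak to the spread among these arrays alone.

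Class I molecules display short peptides from proteins made inside the cell to CD8+ T cells. The peptides are cut by the proteasome, carried into the endoplasmic reticulum by the transporter that Tap1 and Tap2 form, and fitted into the groove of a heavy chain bound to B2m while tapasin, the product of Tapbp, holds the complex at the transporter. Interferon gamma raises the whole pathway in most cells: it induces Psmb8, Psmb9 and Psmb10, which replace the catalytic subunits Psmb5, Psmb6 and Psmb7 in newly built proteasomes, and it induces Nlrc5, which acts at the promoters of class I genes. Most of these genes are expressed at a basal level in nearly every nucleated cell.

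The promoter sequences are shown because Tap1 and Psmb9 start back to back on chromosome 17 and because short elements are shared by some members. RefSeq promoters of build GRCm38.p6 were found for 8 of the 10 genes, all but Tap2 and Nlrc5. They come from C57BL/6J mice, whose class I haplotype is H-2b, whereas Balb/c mice carry H-2d. The motifs searched for, on both strands, in the 250 bases before each start were GAAANNGAA, an interferon-response type of element, TTCNNNGAA, the type of element that STAT dimers bind, CCAAT, which reads ATTGG on the other strand, and GGGATTCCC, a kappa B type of element. Capitals mark the matches, which are descriptions of the letters and not evidence of binding. The interval between the starts of Tap1 and Psmb9 is 225 bases, chr17:34187331-34187555, printed on the plus strand, which reads towards Tap1.
Tap1-Psmb9: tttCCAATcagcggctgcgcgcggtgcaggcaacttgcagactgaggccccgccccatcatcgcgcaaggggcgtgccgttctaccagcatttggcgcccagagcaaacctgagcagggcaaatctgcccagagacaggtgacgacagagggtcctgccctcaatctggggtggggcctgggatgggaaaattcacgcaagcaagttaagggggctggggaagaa
Psmb8 starts downstream in the same cluster, and its window is chr17:34197945-34198194 on the plus strand.
Psmb8: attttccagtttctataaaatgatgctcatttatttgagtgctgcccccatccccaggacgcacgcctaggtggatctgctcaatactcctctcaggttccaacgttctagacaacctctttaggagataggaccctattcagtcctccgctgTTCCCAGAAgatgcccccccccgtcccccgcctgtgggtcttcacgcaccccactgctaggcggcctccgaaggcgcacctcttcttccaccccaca
The windows of the heavy chains are chr17:34000348-34000597 on the minus strand for H2-K1 and chr17:35262844-35263093 on the plus strand for H2-D1, and that of B2m is chr2:122147437-122147686 on the plus strand.
H2-K1: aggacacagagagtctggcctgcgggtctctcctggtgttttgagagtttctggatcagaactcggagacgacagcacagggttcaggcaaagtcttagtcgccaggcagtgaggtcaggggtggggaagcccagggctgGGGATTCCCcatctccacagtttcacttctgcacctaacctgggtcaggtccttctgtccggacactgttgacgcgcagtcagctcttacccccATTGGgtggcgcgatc
H2-D1: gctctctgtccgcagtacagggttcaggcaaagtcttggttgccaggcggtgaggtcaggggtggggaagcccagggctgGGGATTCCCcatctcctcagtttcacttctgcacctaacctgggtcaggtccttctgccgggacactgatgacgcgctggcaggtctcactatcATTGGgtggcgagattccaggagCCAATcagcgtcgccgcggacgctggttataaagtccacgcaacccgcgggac
B2m: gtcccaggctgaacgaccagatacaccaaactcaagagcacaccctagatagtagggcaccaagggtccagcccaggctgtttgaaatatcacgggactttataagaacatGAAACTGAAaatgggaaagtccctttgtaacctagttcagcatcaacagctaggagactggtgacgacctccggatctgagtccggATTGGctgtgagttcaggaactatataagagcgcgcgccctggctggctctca
CCAAT was found in 6 of the 8 genes (H2-K1, H2-D1, B2m, Tap1, Tapbp and Psmb9) and in 33.8% of all 32851 promoter windows. The windows of Tap1 and Psmb9 both cover the 225-base interval, so the CCAAT marked there counted for both genes. GGGATTCCC was found in both heavy chain promoters and in 0.301% of all windows. GAAANNGAA was found only in B2m among the 8 genes (7.13% of all windows), and TTCNNNGAA only in Psmb8 (7.02% of all windows). Other forms of the interferon-response element were not searched for. Both heavy chain windows hold tttcacttc, where GAA recurs on the other strand in an arrangement that GAAANNGAA does not match. The lack of a GAAANNGAA match is therefore not evidence that a promoter lacks such an element.

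Levels below are log2 intensities after background correction and quantile normalisation within the tissue, differences are on the log2 scale, and a difference is called at an adjusted p under 0.05 (limma, adjusted over all probes tested in the tissue). A gene with several probes is represented by the brightest one, and the share of all tested probes called in either direction is given beside the first count of each comparison. Between 11229 and 14456 probes were detected per array. The deposited value table had array medians between 117.5 and 117.9 for the 60 arrays of 0, 1.8, 14 and 42 kBq, against 164.8 to 165.5 for the 30 arrays of 0.064 and 0.64 kBq, so the arrays of 0.064 and 0.64 kBq are compared only among themselves. The alveolar epithelium markers averaged 12 to 12.2 on lung arrays, the hepatocyte markers 11.27 to 12.06 on liver arrays and the B lymphocyte markers 8.98 to 9.94 on spleen arrays. At 0 kBq loop and collecting duct markers averaged 9.67 to 9.71 in medulla and 9.40 to 9.45 in cortex, and proximal tubule markers 10.81 to 10.88 in medulla and 10.96 to 11.15 in cortex, with each zone normalised on its own. Proximal tubule markers were thus present in the medulla samples too. Heavy chain probes can also bind transcripts of related class I genes, and the Balb/c alleles can differ from the probe sequence, so H2-K1 and H2-D1 levels are uncertain in what they measure.

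Some arrays stood apart for these genes. Replicate 1 of 0.64 kBq was the highest of the 6 arrays of 0.064 and 0.64 kBq for 9 of the 10 genes in lung, 6 in liver, 7 in spleen, 10 in cortex and 10 in medulla. The median gene lay 0.48 (lung), 0.42 (liver), 0.50 (spleen), 1.15 (cortex) and 0.63 (medulla) above the middle of the 6 arrays there. The labels do not say whether arrays with the same number in different tissues came from 1 animal. In the 0.064 and 0.64 kBq arrays the SD within groups of the median gene was 0.34 in lung, 0.31 in liver, 0.39 in spleen, 0.63 in cortex and 0.37 in medulla. In the arrays of the other activities it was 0.13, 0.15, 0.17, 0.25 and 0.12 in the same order. Over all probes the same SDs were 0.20 to 0.25 against 0.17 to 0.20, so the gap was wider for these genes than for the array as a whole. All 18 arrays of a tissue entered 1 estimate of the spread, and the calls without the 0.064 and 0.64 kBq arrays are given further on.

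At 0 kBq the lymphoid spleen and the lung had the highest levels of every gene, the liver was mostly in between and both kidney zones were mostly low. These levels come from 1 normalisation of all 90 arrays and differ from the levels within a tissue given later. Of the 100 pairs of tissues (10 genes, 10 pairs each) 72 were called, but only 16 of the 40 pairs of neighbours in the order. Tissues differed in many probes: 56.2% of all probes were called between lung and liver, 49.8% between lung and spleen, 50.1% and 49.4% between lung and the cortex and medulla, 55.8% between liver and spleen, 42.3% and 45.5% between liver and the cortex and medulla, 55% and 54.5% between spleen and the cortex and medulla, and 18.9% between the kidney zones. Kidney cortex and medulla did not differ by a call in any of the 10 genes. Among the heavy chain genes, H2-K1 averaged 11.86 ± 0.046 in spleen, 11.80 ± 0.13 in lung, 11.10 ± 0.10 in liver, 10.30 ± 0.22 in medulla and 9.76 ± 0.055 in cortex (SD, n = 3 each). Lung exceeded liver 1.63-fold (adjusted p = 0.00733) and liver exceeded medulla 1.74-fold (adjusted p = 0.00322), while spleen and lung did not differ by a call. H2-D1 had another order, at 10.63 ± 0.15 in lung, 9.62 ± 0.28 in spleen, 9.19 ± 0.13 in liver, 8.24 ± 0.24 in cortex and 7.95 ± 0.12 in medulla. Lung exceeded spleen 2.02-fold (adjusted p = 0.000219), and the distance from lung to medulla, 6.40-fold, was the widest of the 10 genes. B2m, the light chain of all class I molecules, had the narrowest range, from 14.27 ± 0.13 in spleen to 13.35 ± 0.049 in medulla, a 1.89-fold difference. Its only called step between neighbours was liver over cortex (1.62-fold, adjusted p = 0.000264).

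The transporter and loading genes split by tissue. Tap1 averaged 8.31 ± 0.28 in spleen, 7.17 ± 0.21 in lung, 6.60 ± 0.092 in liver, 5.93 ± 0.48 in cortex and 5.73 ± 0.094 in medulla. Spleen was 2.19-fold above lung (adjusted p = 0.000384) and 5.96-fold above medulla. Tap2 was highest in lung, at 10.48 ± 0.094, against 10.19 ± 0.16 in spleen, which did not differ by a call, and 8.81 ± 0.12 in medulla. Tapbp was 7.76 ± 0.26 in spleen and between 6.57 and 7.04 in the other tissues, with spleen 1.64-fold above lung (adjusted p = 0.00297). For the immunoproteasome, Psmb9 was at 8.17 ± 0.38 in spleen and 8.16 ± 0.20 in lung, against 7.20 ± 0.19 in liver, 6.12 ± 0.24 in cortex and 5.70 ± 0.22 in medulla. Psmb10 had the same order, at 11.19 in spleen, 11.06 in lung, 10.43 in liver, 9.53 in cortex and 9.34 in medulla, with liver 1.86-fold above cortex (adjusted p = 8.01e-06). Psmb8 in spleen, at 7.91 ± 0.35, exceeded lung 1.77-fold (adjusted p = 0.00303), and the lower steps were not called. Nlrc5 had the widest step from spleen to lung, 8.62 ± 0.10 in spleen against 7.27 ± 0.16 in lung, 2.55-fold (adjusted p = 6.44e-05), and spleen was 6.29-fold above cortex.

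**Figure D1:**
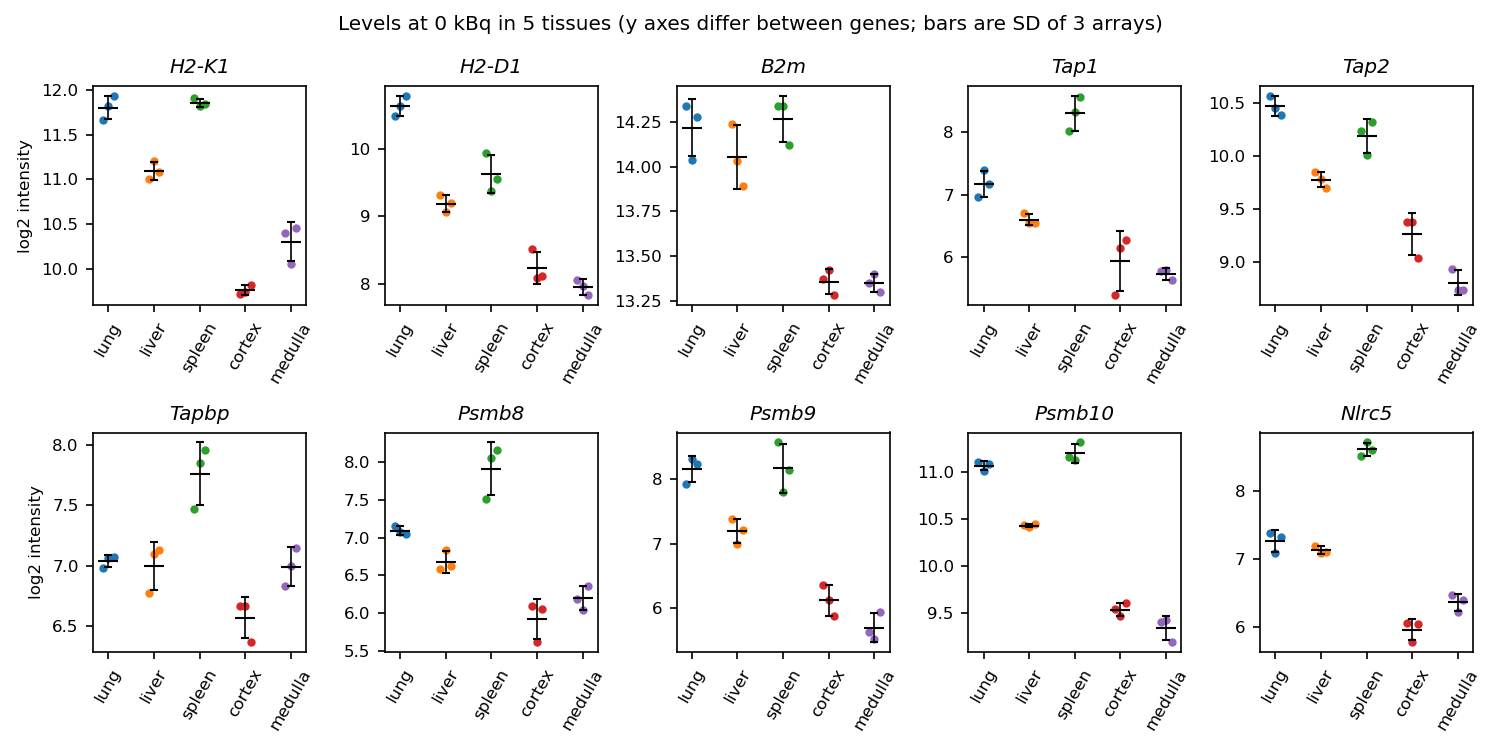
Levels of the 10 genes at 0 kBq as log2 intensity (vertical axis) in lung, liver, spleen and both kidney zones, after 1 normalisation of all 90 arrays. Points are the 3 arrays and bars the mean ± SD; spleen was highest for 8 genes and lung for H2-D1 and Tap2.

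Against 0 kBq, 8 of the 150 combinations of gene, tissue and activity (1.8, 14 and 42 kBq) were called, all of them higher and none lower. Of these, 5 were at 1.8 kBq in the kidney: Tap1, Tap2, Psmb9 and Psmb10 in medulla, where 26.6% of all probes were called, and Psmb10 in cortex, where 2% were. The other 3 were in liver, Psmb8 at 1.8 kBq (3.92% of all probes) and Psmb8 and Nlrc5 at 42 kBq (3.53%). No gene was called in lung or spleen, and none in any tissue at 14 kBq. The heavy chains, B2m and Tapbp were not called anywhere. Over the 15 comparisons of a gene the log2 difference ran from −0.58 to 0.95 for Tap1, from −0.35 to 0.93 for Psmb10, from −0.36 to 0.92 for Psmb8 and from −0.33 to 0.86 for Tap2. B2m had the narrowest range, −0.41 to 0.18. As tissue was measured in bulk, a change in the number of cells of a type and a change of RNA per cell cannot be told apart.

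**Figure D2:**
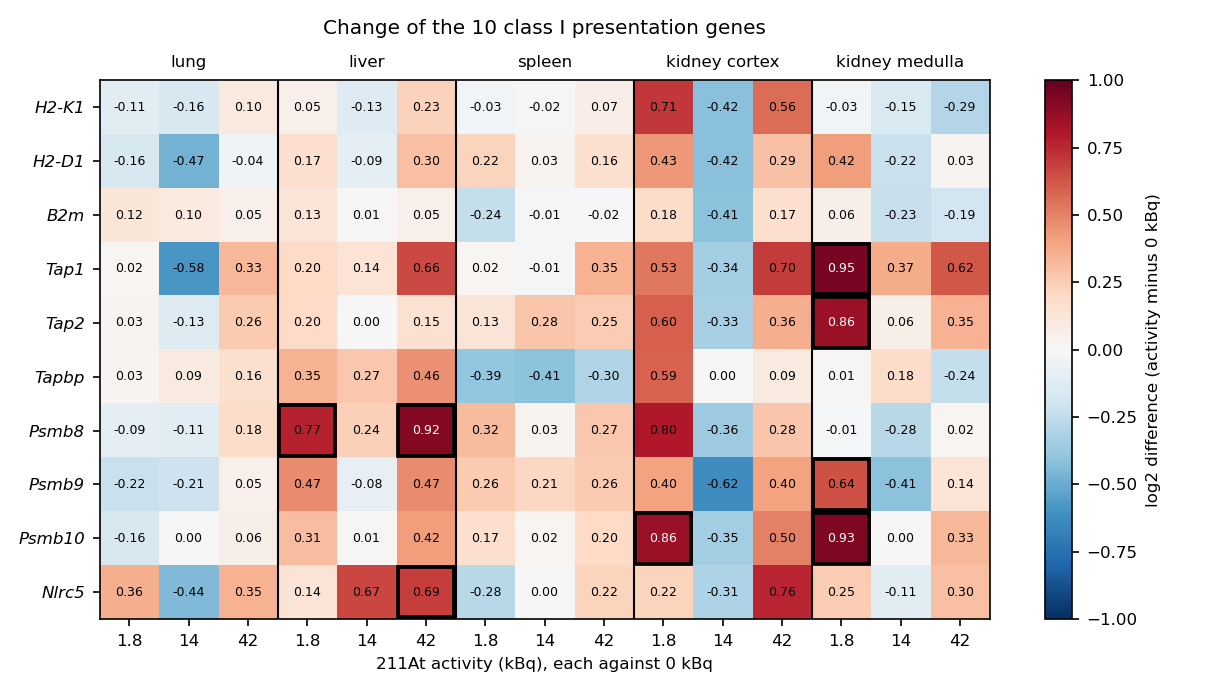
Log2 differences against 0 kBq for the 10 genes (down) in 5 tissues at 1.8, 14 and 42 kBq (across), each from 3 arrays against 3. Boxes mark the 8 called differences, which lie in liver and the kidney and are all positive.

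In kidney medulla at 1.8 kBq the peptide transporter and part of the immunoproteasome rose, while the heavy chains, B2m, Tapbp, Psmb8 and Nlrc5 were not called. Tap1 had 6.82, 6.92 and 6.76 at 1.8 kBq, against 5.92, 5.95 and 5.76 at 0 kBq. The arrays did not overlap, and Tap1 rose 1.94-fold (log2 0.95, SE 0.20, adjusted p = 0.00116, limma). Tap2, the partner of Tap1 in the transporter, had 9.73, 9.89 and 9.90 at 1.8 kBq, against 9.11, 8.91 and 8.91 at 0 kBq, and rose 1.82-fold with no overlap (log2 0.86, SE 0.12, adjusted p = 1.3e-05). Psmb10 had 10.56, 10.41 and 10.30 at 1.8 kBq, against 9.55, 9.57 and 9.35 at 0 kBq. Again no array overlapped, and the gene rose 1.90-fold (log2 0.93, SE 0.14, adjusted p = 2.44e-05). Psmb9, whose start lies 225 bases from that of Tap1 in the interval printed above, had 6.52, 6.14 and 6.77 at 1.8 kBq, against 5.77, 5.66 and 6.10 at 0 kBq. Every 1.8 kBq array was above every 0 kBq array, if narrowly, and the gene rose 1.55-fold (log2 0.64, SE 0.23, adjusted p = 0.0436). These 4 of 10 genes are to be read against 26.6% of all probes called in this comparison, 13.4% as higher, so calls were common in it.

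H2-D1 was next in medulla, with 8.51, 8.49 and 8.65 at 1.8 kBq, against 8.24, 8.15 and 8.01 at 0 kBq. All 3 arrays were above all 3 controls, but the difference of 0.42 had an adjusted p of 0.0667. Nlrc5, not called either, had 6.79, 6.87 and 6.70 at 1.8 kBq, all above its 6.64, 6.39 and 6.57 at 0 kBq. The share of all probes without overlap is not given for this comparison. The lack of overlap in these genes is therefore a description and does not set them apart. Psmb8 had 6.50, 6.34 and 6.23 at 1.8 kBq, against 6.36, 6.20 and 6.53 at 0 kBq, with full overlap and a difference of −0.01 (95% interval −0.41 to 0.39). That interval leaves out the difference seen for Psmb10 but not a smaller change. H2-K1 differed by −0.03 (95% interval −0.50 to 0.44). The other 2 activities gave no call in medulla, against 0.438% of probes called at 14 kBq and 5.05% at 42 kBq, while 0 and 3 genes had an unadjusted limma p under 0.05. At 42 kBq Tap1 had 6.67, 6.50 and 6.33 and Tap2 9.35, 9.35 and 9.26, every array above the controls given above, with differences of 0.62 (adjusted p = 0.0776) and 0.35 (adjusted p = 0.0967). Psmb10 at 42 kBq had 9.78, 9.94 and 9.74, also all above the controls (0.33, adjusted p = 0.169). In all, 4 genes were higher and 1, B2m, was lower on every 42 kBq array, where 13.7% and 14% of all probes were. At 14 kBq 7 of the 10 differences were negative (median −0.13). H2-D1, B2m, Psmb8 and Psmb9 were lower on every 14 kBq array, where 9.19% of all probes were. Tap1 alone was higher on every array, where 10.8% of all probes were, with 6.21, 6.19 and 6.33 at 14 kBq (0.37, adjusted p = 0.513).

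Some markers of other cell types and class II pathway genes also moved in medulla at 1.8 kBq. The summed linear level of the class II presentation genes was 24200 to 26400 at 1.8 kBq and 17000 to 17300 at 0 kBq, and that of macrophage and monocyte markers 3670 to 3780 at 1.8 kBq and 2800 to 2880 at 0 kBq, with Lyz2 and Cd14 called higher among 9 macrophage genes. Neutrophil granule markers summed to 2000 to 2080 at 1.8 kBq and 604 to 652 at 0 kBq, with 3 of 7 called higher. Their mean log2 level was 5.75 to 5.84 at 1.8 kBq and 5.29 to 5.32 at 0 kBq. Ngp, Retnlg, Mpo, Elane and Mmp8 were not detected on any of the 3 arrays of 1.8 kBq. T and NK lymphocyte markers summed to 566 to 593 at 1.8 kBq and 613 to 644 at 0 kBq, with 0 of 8 called higher and 2 lower, and Cd2, Il2rb, Cd4 and Cd8a were not detected on any of the 3 arrays of 1.8 kBq. These counts of called markers are to be read against 26.6% of all probes called in this comparison, 13.4% as higher. The part of these cell types in the class I differences was not tested. Tap1, Tap2 and Psmb10 in medulla were called in each of the 6 fits that left out 1 of the arrays compared, whereas Psmb9 was called in 2 of those 6 fits (adjusted p 0.0149 to 0.19 over the alternatives and left-out arrays). The sizes depended on the processing: Tap1 differed by 0.44 without background correction and by 0.35 on the authors' deposited normalised values, and Psmb9 by 0.27 and 0.21, the last of them not called (adjusted p = 0.0821).

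In kidney cortex at 1.8 kBq all 10 genes had a positive difference, with a median of 0.56 against −0.03 to 0.05 over all genes of a comparison, but Psmb10 alone was called, against 2% of all probes and 1.5% as higher. Psmb10 had 10.61, 10.41 and 10.53 at 1.8 kBq, against 9.66, 9.58 and 9.73 at 0 kBq. The arrays did not overlap and it rose 1.82-fold (log2 0.86, SE 0.22, adjusted p = 0.0425). This call was lost, at an adjusted p of up to 0.152, in each of the 6 fits that left out 1 of these arrays, while the difference stayed between 0.76 and 0.92 over all alternatives and left-out arrays. Psmb8 had 7.12, 6.46 and 6.59 at 1.8 kBq, against 6.11, 5.61 and 6.06 at 0 kBq, without overlap (0.80, adjusted p = 0.22). H2-K1 had 10.83, 10.55 and 10.44 at 1.8 kBq, against 9.85, 9.87 and 9.96 at 0 kBq, and no array overlapped although the difference of 0.71 had an SE of 0.31 and an adjusted p of 0.284. Tap2 had 10.08, 10 and 9.84 at 1.8 kBq, against 9.49, 9.50 and 9.13 at 0 kBq (0.60, adjusted p = 0.337). Tapbp was the other gene with every array above the controls, at 7.27, 7.39 and 6.93 against 6.71, 6.71 and 6.40 at 0 kBq. In all, 5 of the 10 genes were higher on every array, where 13.2% of all probes were.

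The cortex differences changed sign with the activity. At 14 kBq no gene was called by limma (2 at an unadjusted p under 0.05), where 0.119% of all probes were, but 9 of the 10 differences were negative (median −0.35), and 4 genes were lower on every array, where 9.29% of all probes were. Psmb9 was one of them, with 5.58, 5.47 and 5.50 at 14 kBq, against 6.39, 6.14 and 5.89 at 0 kBq. At 42 kBq all 10 differences were positive again (median 0.38) and none was called (2 at an unadjusted p under 0.05), where 1.7% of all probes were. Psmb10 had 10.09, 10.19 and 10.18 at 42 kBq, above all controls (0.50, adjusted p = 0.387), and Nlrc5 had 6.61, 6.68 and 6.91 at 42 kBq, against 6.07, 5.78 and 6.06 at 0 kBq. At 42 kBq 6 genes were higher on every array, where 11.2% of all probes were. The 3 comparisons share their 0 kBq arrays, so their signs are not independent of each other.

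The summed level of class II presentation genes in cortex followed the same order of activities, at 24000 to 25900 at 1.8 kBq, 10500 to 11000 at 14 kBq and 21600 to 23300 at 42 kBq, against 13300 to 13700 at 0 kBq. Macrophage and monocyte markers summed to 2100 to 2310 at 1.8 kBq and 1250 to 1410 at 0 kBq, with 1 of 8, Cd14, called higher. Neutrophil granule markers summed to 948 to 1060 at 1.8 kBq and 774 to 826 at 0 kBq, with 1 of 8 called higher. Their mean log2 levels overlapped, at 5.46 to 5.66 at 1.8 kBq and 5.47 to 5.59 at 0 kBq. Camp, Ngp, Mpo and Mmp8 were not detected on the 3 arrays of 1.8 kBq. T and NK lymphocyte markers summed to 438 to 479 at 1.8 kBq and 509 to 550 at 0 kBq, with none of 7 called, and Il2rb, Cd5, Cd4, Gzma and Cd8a were not detected on the 3 arrays of 1.8 kBq. Hepatocyte markers summed to 3240 to 3840 at 1.8 kBq and 2260 to 2580 at 0 kBq, with 4 of 6 called higher. Of the 10 on the array, 3 to 4 were already detected per cortex array at 0 kBq. Serpina1a, Cps1, Alb, Tat and Fgb were not detected on the 3 arrays of 1.8 kBq. The part of these genes' cells in the class I differences was not tested.

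The activities were also tested against each other in the kidney. In medulla at 14 against 1.8 kBq, 5 genes fell: Psmb9 (−1.04, adjusted p = 0.002), Psmb10 (−0.93, adjusted p = 3.35e-05), Tap2 (−0.81, adjusted p = 4.18e-05), H2-D1 (−0.64, adjusted p = 0.00712) and Tap1 (−0.59, adjusted p = 0.0397), with 22.5% of all probes called. Psmb9 had 5.47, 5.40 and 5.45 at 14 kBq, against 6.52, 6.14 and 6.77 at 1.8 kBq, a gap wider than the spread within either group. In medulla at 42 against 1.8 kBq, Tap2 fell by 0.52 (adjusted p = 0.00779) and Psmb10 fell by 0.60 (adjusted p = 0.00631), with 8.62% of all probes called. In cortex at 14 against 1.8 kBq, all 10 differences were negative and 3 genes were called, against 3.38% of all probes. Psmb10 fell by 1.21 (adjusted p = 0.00378), Psmb8 fell by 1.15 (adjusted p = 0.0434) and H2-K1 fell by 1.13 (adjusted p = 0.049). H2-K1 had 9.48, 9.45 and 9.49 at 14 kBq, against 10.83, 10.55 and 10.44 at 1.8 kBq. In cortex 9 of the 10 genes, all but Nlrc5, were lower on every 14 kBq array than on any 1.8 kBq array, where 12.8% of all probes were. At 42 against 14 kBq in cortex 9 genes were higher on every array, where 7.91% of all probes were, and 9 had an unadjusted limma p under 0.05, but none was called (lowest adjusted p 0.11), where 0.451% of all probes were. None was called at 42 against 1.8 kBq in cortex (0 at an unadjusted p under 0.05, 4.23% of all probes called) or at 42 against 14 kBq in medulla (4 at an unadjusted p under 0.05, 2.51% of all probes called).

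**Figure D3:**
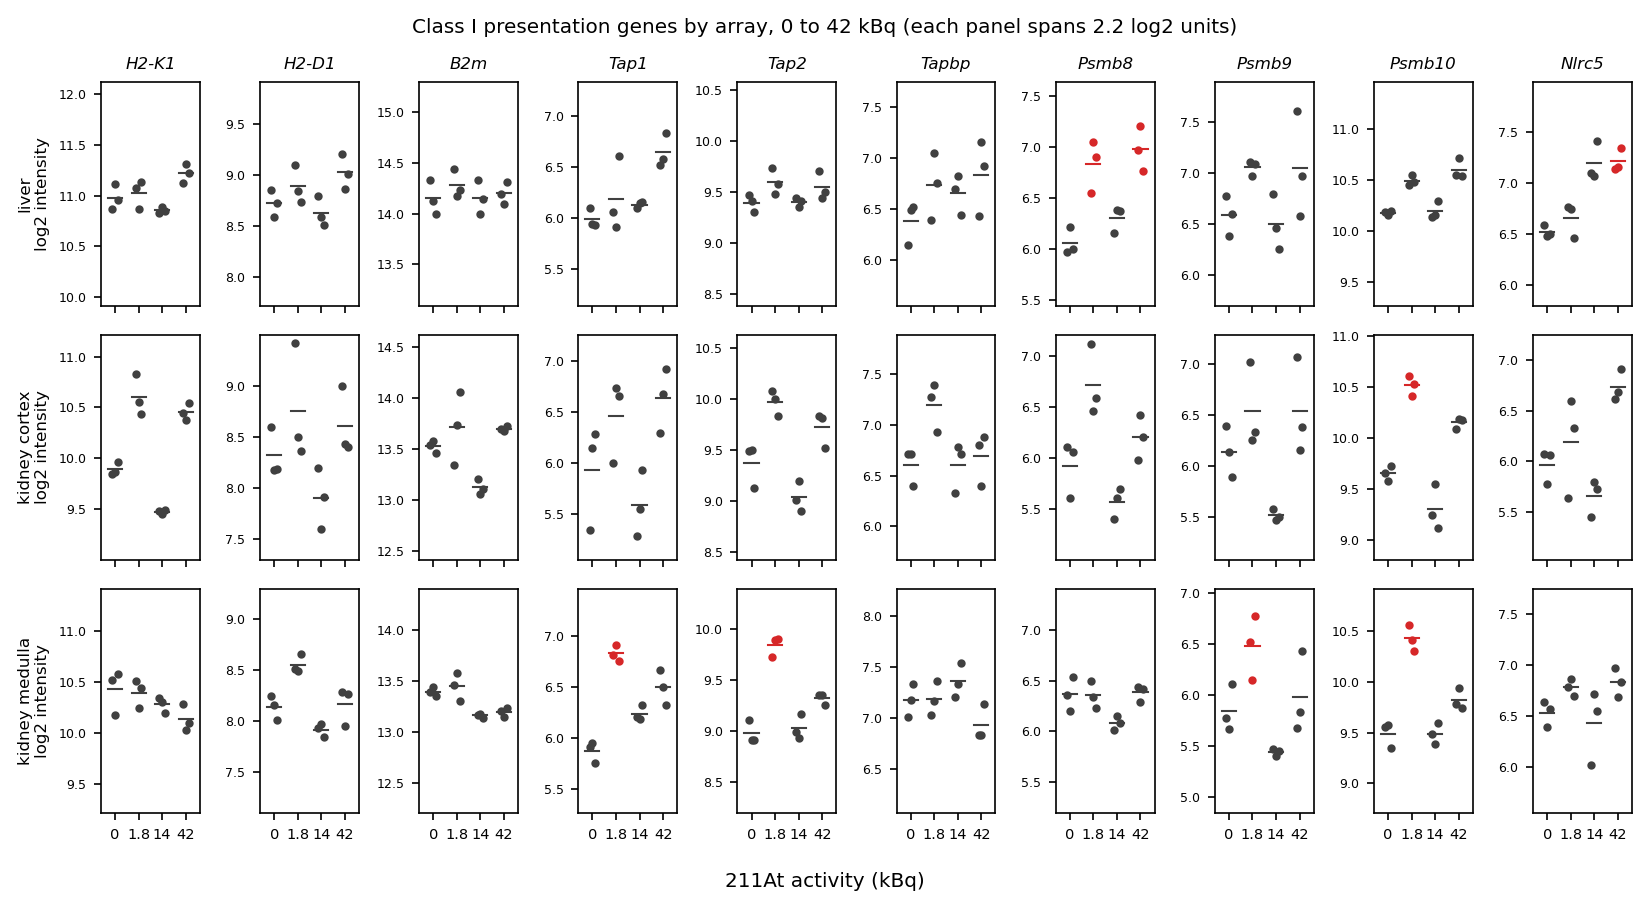
Log2 intensity of the 10 genes (columns) in liver, kidney cortex and kidney medulla (rows) by activity from 0 to 42 kBq. Each point is an array, lines are means of 3, and red marks a call against 0 kBq; Psmb10 at 1.8 kBq stood above 0 kBq in both kidney zones, and Psmb8 stood above 0 kBq in liver at 1.8 and 42 kBq.

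In liver an immunoproteasome subunit and the class I regulator rose. Psmb8 had 6.55, 7.05 and 6.90 at 1.8 kBq and 6.97, 7.21 and 6.77 at 42 kBq, against 5.97, 6.22 and 6 at 0 kBq. No array of either group overlapped the controls. The rise was 1.70-fold at 1.8 kBq (log2 0.77, SE 0.21, adjusted p = 0.0382) and 1.90-fold at 42 kBq (log2 0.92, SE 0.21, adjusted p = 0.0117). At 14 kBq Psmb8 had 6.16, 6.38 and 6.37, overlapping the controls (0.24, adjusted p = 0.741). Nlrc5 had 7.14, 7.16 and 7.34 at 42 kBq, against 6.59, 6.48 and 6.50 at 0 kBq, and rose 1.61-fold without overlap (log2 0.69, SE 0.18, adjusted p = 0.0308). At 14 kBq Nlrc5 had 7.10, 7.07 and 7.41, also all above the controls, and the difference of 0.67 missed the threshold (adjusted p = 0.0649). In liver 1 of 10 genes was called at 1.8 kBq, where 3.92% of all probes were (1.97% as higher), 2 at 42 kBq, where 3.53% were (1.76% as higher), and 0 at 14 kBq, where 1.3% were and Nlrc5 alone had an unadjusted limma p under 0.05.

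Other liver differences at 42 kBq were positive without a call. Tap1 had 6.52, 6.58 and 6.83 at 42 kBq, against 6.09, 5.94 and 5.93 at 0 kBq (0.66, adjusted p = 0.0736). Psmb10 had 10.55, 10.72 and 10.54 at 42 kBq, against 10.19, 10.16 and 10.20 at 0 kBq (0.42, adjusted p = 0.0901). In both genes no array overlapped the controls, as in 6 of the 10 genes, where 13.7% of all probes lay so. All 10 differences were positive at 42 kBq (median 0.44), the smallest being B2m, at 0.05 (95% interval −0.18 to 0.27). At 1.8 kBq all 10 were positive too (median 0.20), and 7 of 10 were at 14 kBq (median 0.01). The liver calls rested on few arrays: without 1 of the 6 arrays compared, Psmb8 was called in 1 of 6 fits at 1.8 kBq (adjusted p 0.00198 to 0.188 over the alternatives and left-out arrays) and in 3 of 6 at 42 kBq (0.000295 to 0.0825), and Nlrc5 in 0 of 6 (0.00157 to 0.392). Without background correction the differences were 0.37 for Psmb8 at 1.8 kBq, 0.46 for Psmb8 at 42 kBq and 0.38 for Nlrc5. On the authors' deposited normalised values they were 0.39, 0.48 and 0.39, and of these only Psmb8 at 42 kBq was called (adjusted p = 0.0185). Neutrophil granule markers in liver summed to 7400 to 7620 at 1.8 kBq and 8680 to 9080 at 42 kBq, against 4350 to 4590 at 0 kBq, with 3 of 11 called higher at each. Class II presentation genes summed to 5310 to 6320 at 1.8 kBq and 6300 to 7230 at 42 kBq, against 4520 to 4820 at 0 kBq, with 0 of 7 called at either. Macrophage markers summed to 5810 to 6300 at 1.8 kBq and 5930 to 6330 at 42 kBq, against 5170 to 5260 at 0 kBq, with 0 and 1 of 11 called, and T and NK lymphocyte markers to 352 to 372 at 42 kBq and 426 to 444 at 0 kBq, with 0 of 7 called. The part of these cells in the differences of Psmb8 and Nlrc5 was not tested.

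In lung no gene was called by limma at 1.8, 14 or 42 kBq, where 0.374%, 0.43% and 0.679% of all probes were, and 0, 3 and 0 genes had an unadjusted p under 0.05. At 14 kBq the differences were mostly negative. Tap1 had 7.22, 6.88 and 6.87 at 14 kBq, against 7.37, 7.78 and 7.57 at 0 kBq (−0.58, adjusted p = 0.288). H2-D1 had 10.32, 10.30 and 10.31 at 14 kBq, against 10.65, 10.78 and 10.92 at 0 kBq (−0.47, adjusted p = 0.252). These and Nlrc5 were lower on every array, 3 of 10 genes, where 13.9% of all probes were. Other lists differed at 14 kBq in lung as well. Neutrophil granule markers summed to 19900 to 20100 at 14 kBq and 26000 to 35600 at 0 kBq, with 4 of 11 called lower. Class II presentation genes summed to 31500 to 32800 at 14 kBq and 35500 to 36800 at 0 kBq, and T and NK lymphocyte markers to 2030 to 2180 at 14 kBq and 2320 to 2490 at 0 kBq, with 0 of 10 called in each. Cardiac muscle markers, which can mark heart tissue beside the lung, summed to 5180 to 5910 at 14 kBq and 3680 to 3970 at 0 kBq, with 0 of 7 called. Their part in the class I differences was not tested. Nlrc5 moved between activities in lung. It had 7.78, 7.49 and 7.72 without activity (0 kBq), then 8.03, 7.98 and 8.05 with 1.8 kBq, 7.37, 7.17 and 7.14 with 14 kBq, and 7.83, 8.19 and 8.01 with 42 kBq. At 14 against 1.8 kBq it fell by 0.80 (adjusted p = 0.0243), 1 of 10 genes called against 1.41% of all probes. At 42 against 14 kBq it rose by 0.79 (adjusted p = 0.0454), again 1 of 10, against 0.623% of all probes.

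In spleen, which had the highest level of 8 of the genes at 0 kBq, no gene was called at 1.8, 14 or 42 kBq, where 2.8%, 3.3% and 0.529% of all probes were, and 0, 1 and 0 genes had an unadjusted limma p under 0.05. The 30 differences lay between −0.41 and 0.35. Tapbp had the lowest, −0.39 at 1.8 kBq, −0.41 at 14 kBq and −0.30 at 42 kBq. It had 7.22, 7.33 and 7.44 at 1.8 kBq, against 7.43, 7.80 and 7.91 at 0 kBq, which overlapped by 1 array. The spleen arrays also differed in exocrine pancreas markers, of which 17 of 17 were called higher at each of the 3 activities. They summed to 314000 to 317000 at 1.8 kBq, 20100 to 21700 at 14 kBq and 147000 to 153000 at 42 kBq, against 885 to 995 at 0 kBq, where most of them were not detected on any array. No class I gene was called when the spleen arrays were normalised without those probes. Leaving out probes does not take the RNA of pancreas cells out of a sample, so the part of such cells in the spleen values was not tested.

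The fit of all 90 arrays also tested, as an interaction, whether a difference against 0 kBq varied with the tissue. Psmb10 at 1.8 kBq was the only one of the 30 combinations of gene and activity called (F-test, adjusted p = 0.000874), with differences of −0.18 in lung, 0.26 in liver, 0.20 in spleen, 0.84 in cortex and 0.95 in medulla. At this activity 16.2% of all probes were called, at 14 kBq 3.36% and at 42 kBq 4.4%. The second Psmb10 probe was called too (adjusted p = 0.0274). The difference between medulla and cortex was called for none of the 10 genes, where 7.33% of all probes were at 1.8 kBq, 0.22% at 14 kBq and 1.07% at 42 kBq. So Tap1 and Tap2, called in medulla and not in cortex, are not shown to differ between the zones.

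The number of calls depended on the arrays included, and which of the normalisation, the filter and the spread changed it was not tested. When the 12 arrays of 0, 1.8, 14 and 42 kBq of a tissue were normalised, filtered and fitted alone, 26 of the 150 combinations were called in place of 8, 22 higher and 4 lower. In cortex at 1.8 kBq, H2-K1 (0.73, adjusted p = 0.000132), Tap2 (0.61, adjusted p = 0.00479) and Psmb8 (0.80, adjusted p = 0.0195) were then called beside Psmb10 (0.88, adjusted p = 4.61e-05), with 9.02% of all probes called. At 14 kBq H2-K1 was called lower in cortex (−0.43, adjusted p = 0.0249) with 2.76% of all probes, and at 42 kBq H2-K1 (0.58, adjusted p = 0.00119), Psmb10 (0.51, adjusted p = 0.0069) and Nlrc5 (0.76, adjusted p = 0.0433) were called higher with 5.58%. In lung at 14 kBq H2-D1 (−0.48, adjusted p = 0.00158), Tap1 (−0.58, adjusted p = 0.0289) and Nlrc5 (−0.44, adjusted p = 0.0399) were called lower, with 5.98% of all probes, and none at 1.8 kBq (4.02%) or 42 kBq (2.27%). In liver Psmb10 was added at 1.8 and 42 kBq, Tap1 at 42 kBq (0.64, adjusted p = 0.0118) and Nlrc5 at 14 kBq (0.65, adjusted p = 0.00332), with 14.7%, 7.94% and 12.5% of all probes called at 1.8, 14 and 42 kBq. In medulla H2-D1 was added at 1.8 kBq (0.41), and Tap1 (0.62), Tap2 (0.34) and Psmb10 (0.33) at 42 kBq, with 33.4% and 10.5% of all probes called, and none at 14 kBq (2.54%). B2m and Tapbp were still called nowhere against 0 kBq, and in spleen no gene was, with 8.87%, 11.4% and 1.79% of all probes called at 1.8, 14 and 42 kBq. In the same arrays the interaction was called for 6 genes at 1.8 kBq (30% of all probes), H2-K1, Tap1, Tap2, Tapbp, Psmb8 and Psmb10, for Tap2 and Nlrc5 at 14 kBq (13.9%) and for H2-K1 and Psmb8 at 42 kBq (12.7%).

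At 0.64 against 0.064 kBq no gene was called in any tissue, where 0.162% of all probes were in lung, 4.96% in liver, 1.3% in spleen, 0.106% in cortex and 1.16% in medulla. An unadjusted limma p under 0.05 was reached by 2 genes in lung, 5 in liver, 2 in spleen, 0 in cortex and 3 in medulla. In each tissue 9 of the 10 differences were positive, with medians of 0.23 in lung, 0.34 in liver, 0.26 in spleen, 0.16 in cortex and 0.30 in medulla. Psmb8 in liver had 6.47, 7.01 and 6.34 at 0.64 kBq, against 6.29, 5.70 and 5.73 at 0.064 kBq, with no overlap (0.70, SE 0.21, adjusted p = 0.0514). Tap1 in liver had 7.04, 6.71 and 6.34 at 0.64 kBq, against 6.02, 6.34 and 5.95 at 0.064 kBq, touching at 6.34 (0.59, adjusted p = 0.0806). Psmb9 in liver had 8.79, 7.95 and 7.02 at 0.64 kBq, against 7.07, 7.68 and 6.98 at 0.064 kBq, with overlap. Most other genes had 1 high array rather than 3. H2-K1 in cortex had 10.66, 8.75 and 9.01 at 0.64 kBq, against 9.83, 9.14 and 9.09 at 0.064 kBq, so replicate 1 was the highest and the other 0.64 kBq arrays were below all 3 of 0.064 kBq. Tap2 in cortex had 9.98, 8.64 and 8.10 at 0.64 kBq, against 8.75, 8.65 and 8.86 at 0.064 kBq, with the same shape.

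Without replicate 1 of 0.64 kBq, 5 differences were positive in lung, 8 in liver, 7 in spleen, 2 in cortex and 6 in medulla. The medians were then −0.01, 0.23, 0.15, −0.24 and 0.04 in the same order, and no gene was called. Leaving out other arrays gave calls. Without replicate 3 of 0.64 kBq in liver, 7 genes were called higher (H2-K1, H2-D1, Tap1, Tap2, Psmb8, Psmb9 and Psmb10) with 16.5% of all probes, and without replicate 1 of 0.064 kBq 2 were (Psmb8 and Psmb10, 4.12%). In spleen 3 were called without replicate 1 of 0.064 kBq (Tap1, Tap2 and Psmb10, 4.95%) and 1, H2-K1, without replicate 2 of 0.64 kBq (2.43%).

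Replicate 1 of 0.64 kBq was high for related genes too. The class I genes exceeded both other 0.64 kBq arrays in 10 of 10 in lung, 6 of 10 in liver, 9 of 10 in spleen, 10 of 10 in cortex and 10 of 10 in medulla, where 32.8%, 26.5%, 34.7%, 39.3% and 33.8% of all genes did. Interferon gamma response genes did so in 11 of 12, 9 of 10, 10 of 12, 9 of 11 and 9 of 10, and class II genes in 6 of 10, 7 of 7, 7 of 10, 7 of 8 and 7 of 9, in the same order of tissues. T and NK lymphocyte markers did so in 8 of 10, 3 of 7, 7 of 11, 7 of 7 and 7 of 8, and B lymphocyte markers in 1 of 8, 0 of 4, 1 of 8, 2 of 4 and 0 of 3. Macrophage and monocyte markers did so in 9 of 10, 4 of 11, 3 of 10, 5 of 8 and 5 of 9. Fat cell markers did so in 3 of 3, 0 of 1, 0 of 3, 0 of 4 and 4 of 4. Their median log2 difference from the other arrays was 4.93 in lung and 3.31 in medulla, so the array was not high for immune genes alone. What this array had in common across tissues was not tested.

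**Figure D4:**
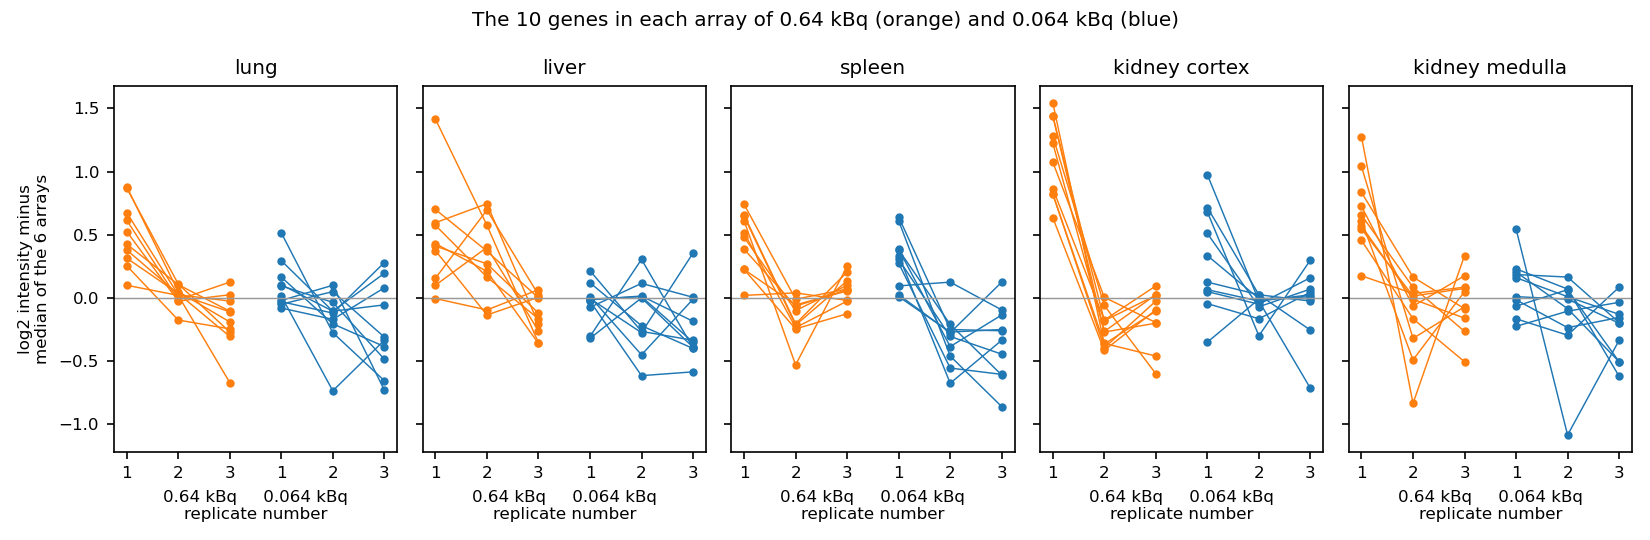
Levels of the 10 genes on the 3 arrays of 0.64 kBq (orange, left) and the 3 of 0.064 kBq (blue, right) in each tissue, as log2 intensity minus the median of the 6 arrays. Each line joins 1 gene; replicate 1 of 0.64 kBq was the highest array for 10 of 10 genes in kidney cortex and in kidney medulla, and replicates have no order.

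Where a second probe was detected, it was set beside the first as a deviation from the tissue mean over the 60 arrays of 0, 1.8, 14 and 42 kBq. The Psmb10 probes had a correlation of 0.84, and the second one gave 0.88 in cortex (adjusted p = 0.0977) and 0.60 in medulla (adjusted p = 0.00854) at 1.8 against 0 kBq. The B2m probes had a correlation of 0.79, and another B2m probe was detected on 0 of 90 arrays. The second probes of H2-K1 (detected on 73 of 90 arrays) and Tapbp (71 of 90) had correlations of only 0.23 and −0.02, so those genes' values rest on the brighter probe.

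The genes varied together to different degrees. Against the mean deviation of the other members, the correlation over the 60 arrays was 0.84 for Psmb10, 0.81 for Tap2, 0.77 for H2-K1, 0.65 for H2-D1 and Psmb8, 0.62 for Tap1 and Psmb9, 0.48 for B2m and Nlrc5 and 0.25 for Tapbp. Over the 30 arrays of 0.064 and 0.64 kBq it was between 0.58 (Tapbp) and 0.94 (Psmb10). The points share arrays and normalisation, so these are descriptions. Of 8237 genes outside the list tested in all tissues, those most like the mean of the members over the 60 arrays were Gbp2b (0.88), H2-DMb1 (0.88), H2-DMa (0.86), Irgm2 (0.86) and H2-Q5 (0.85). Over the 30 arrays their correlations were 0.91, 0.84, 0.87, 0.82 and 0.80. Gbp2b encodes an interferon-inducible GTPase of the guanylate-binding family, Irgm2 an immunity-related GTPase, H2-DMa and H2-DMb1 the chains of the class II peptide exchanger, and H2-Q5 a class I-like heavy chain.

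Other genes of the pathway moved in both directions. In medulla at 1.8 kBq, 3 of 16 genes of peptide supply and loading rose and 3 fell, with a median of 0.03. Calls were common in this comparison, at 26.6% of all probes, 13.4% as higher, so these counts do not set the list apart. Tapbpl, a tapasin-related peptide editor, rose by 0.58 (adjusted p = 0.00826) and the peptidase gene Tpp2 by 0.40. The chaperone genes of the loading complex went down there: Calr fell by 1.69 (adjusted p = 3.24e-08) and Pdia3 fell by 0.55 (adjusted p = 0.00137). At 42 kBq Calr fell by 1.31 (adjusted p = 1.93e-05) and Pdia3 fell by 0.46. Of the 3 catalytic subunits of the constitutive proteasome, Psmb7, the one that Psmb10 replaces, fell by 0.63 in medulla at 1.8 kBq (adjusted p = 1.28e-05) and fell by 0.32 at 42 kBq (adjusted p = 0.0333). Psma4, 1 of 9 other core subunits, fell by 0.28 at 1.8 kBq. In cortex at 1.8 kBq none of the 3 catalytic and none of the 16 supply genes was called.

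Among 17 regulators of class I genes tested in medulla, 6 rose and 1 fell at 1.8 kBq, with a median of 0.23. Counts at 1.8 kBq are to be read against 26.6% of all probes called in medulla, 13.4% as higher, and 2% in cortex. Irf1, an interferon-induced activator, rose by 0.78, the NF-kappa B subunit gene Rela by 0.60, Stat3 by 0.75 and Ciita, the class II counterpart of Nlrc5, by 1.13. In cortex 4 of 18 rose and none fell, with a median of 0.02: Irf1 by 0.98 (adjusted p = 0.0484), Rela by 0.49, Stat3 by 0.98 (adjusted p = 0.00427) and Ciita by 1.34 (adjusted p = 0.0196). Of the class II genes H2-DMb2 rose by 2.30 in cortex (adjusted p = 0.00427, 2 of 8 called, median 0.93), and H2-DMb1 by 0.94 and H2-Eb1 by 0.66 in medulla (3 of 9 called, median 0.54). Both class II counts include Ciita, which is on the regulator list as well, so the counts of the 2 lists are not separate. Among 13 other class I and class I-like heavy chains H2-M2 alone was called in cortex, where it rose by 0.96. Interferon gamma response genes were mixed in medulla, where 4 of 10 rose, among them Ubd by 1.41, and Gbp3 fell by 0.63.

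In liver H2-Q8 rose by 0.56 at 1.8 kBq, 1 of 14 other heavy chains, where 3.92% of all probes were called. Ubd, a ubiquitin-like gene induced by interferon gamma, fell there by 1.12. At 42 kBq Tapbpl rose by 0.67 and Gbp3 by 0.79. At 0.64 against 0.064 kBq Calr fell by 0.65 and Pdia3 fell by 0.82 in liver. In lung Cxcl9, a chemokine gene induced by interferon gamma, fell at all 3 activities, with differences of −2.02 at 1.8 kBq (adjusted p = 0.0317), −3.19 at 14 kBq (adjusted p = 0.000174) and −2.01 at 42 kBq (adjusted p = 0.0148), while no class I gene was called there. Cxcl10, detected on 1 of 3 arrays at 14 kBq, fell by 1.39 in lung. Type I interferon response genes had calls in both directions. Oasl2 rose in medulla by 0.62 at 1.8 kBq (adjusted p = 0.00148) and by 0.66 at 42 kBq (adjusted p = 0.00586), and Ifit2 rose by 0.37 in medulla at 1.8 kBq (adjusted p = 0.033) and by 0.83 in cortex at 42 kBq (adjusted p = 0.0306). Isg15 fell by 0.92 in spleen at 14 kBq (adjusted p = 0.0186). Oas1g was not detected at 14 kBq on any array of lung, spleen, cortex or medulla, and was called lower in all of these but cortex (adjusted p = 0.334). It was at least 6.25-fold lower in lung (adjusted p = 0.0174), 7.17-fold lower in spleen (adjusted p = 0.00794) and 2.61-fold lower in medulla (adjusted p = 0.0014), bounds set by the detection limit of the 14 kBq arrays.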

How the data were processed

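Per the file headers, the deposited unnormalised table held a linear intensity and, beside it, a detection p-value that sets the probe against its array's background, for each of 90 arrays. The authors' deposited value table held processed intensity values, and how it was made is not given in the sources used here. It served as an alternative. Probes were named through the platform annotation: 23978 of 25697 had 1 symbol and 1719 none. Background was corrected by normexp with detection p-values, with an offset of 16, and the log2 values of a tissue's arrays were quantile normalised together (limma 3.58.1, R 4.3.3). Probes with a detection p under 0.05 on 3 or more arrays of the tissue were tested: 16048 for lung, 13673 for liver, 15310 for spleen, 15063 for cortex and 15298 for medulla.

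Limma fitted 1 mean per group over the 18 arrays of a tissue (12 residual degrees of freedom, with a trend of the variance over intensity), with two-sided tests and Benjamini-Hochberg adjustment over all probes of a comparison. Tissues were compared in 1 fit of 90 arrays (19538 probes). All adjusted p-values are limma's, and the number of arrays limits the precision. The procedure was tested on simulated data. The genes, the lists (267 of 290 names matched) and the alternatives were chosen with earlier results of these data known. Named genes were the members, for each other list up to 4 genes called most often, and the 5 genes most like the members. Genes named outside this rule were chosen after their values were seen. Same-numbered arrays deviated together (every pair's correlation over 0.1) in 5 of 20 comparisons: lung and cortex at 0.64 against 0.064 kBq, and spleen at 14, spleen at 42 and cortex at 1.8 against 0 kBq.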

Additional observations from a re-analysis of the deposited data

Results flagged for a closer look

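The difference of Psmb10 at 1.8 against 0 kBq varied among the 5 tissues by a test of that variation itself (limma F-test, adjusted p = 0.000874). It was 0.95 in kidney medulla, 0.84 in kidney cortex, 0.26 in liver, 0.20 in spleen and −0.18 in lung on the log2 scale. All 3 arrays of 1.8 kBq were above all 3 of 0 kBq in both kidney zones, as were 13.2% of all probes in cortex. The share of all probes is not given for medulla, so the lack of overlap is a description there. The second Psmb10 probe was called in the same test (adjusted p = 0.0274). With 16.2% of all probes called in this test, variation among tissues at 1.8 kBq was common.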

How the results depend on the processing

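No called difference changed sign under any of the alternatives run or with any array left out. Sizes moved more: over these settings Tap1 in medulla ran from 0.35 to 1, Psmb9 in medulla from 0.21 to 0.80, Psmb8 in liver from 0.37 to 0.91 at 1.8 kBq and 0.46 to 1.03 at 42 kBq, and Nlrc5 in liver from 0.38 to 0.72, the lowest without background correction or on the authors' deposited normalised values. Counts of genes called against 0 kBq over 1.8, 14 and 42 kBq were 0 in lung, 3 in liver, 0 in spleen, 1 in cortex and 4 in medulla. They rose to 3 in lung, 7 in liver, 8 in cortex and 8 in medulla when the 12 arrays of 0, 1.8, 14 and 42 kBq were normalised, filtered and fitted alone, and to 2, 8, 8 and 8 when only the arrays of the 2 groups compared were fitted. The liver count was 1 with median centring and 1 with the authors' deposited table. The cortex count was 0 when the probes of a gene were averaged and 0 without the intensity trend. At 0.64 against 0.064 kBq the count of 0 became 3 with median centring, and 1 each with cyclic loess, with the deposited table, with probes detected on at least 9 arrays and with probes averaged. The interaction count of 1 became 10 without the 0.064 and 0.64 kBq arrays. Of the 100 pairs of tissues 72 were called, 67 with the deposited table and 68 with median centring.

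Leaving out 1 array at a time gave 0 to 0 calls in lung, 0 to 3 in liver, 0 to 0 in spleen, 0 to 1 in cortex, 3 to 4 in medulla and 0 to 7 at 0.64 against 0.064 kBq. In liver none remained without replicate 1 or replicate 3 of 0 kBq, and 1 without replicate 2 of 0 kBq or replicate 2 of 42 kBq. In cortex the call was kept only without replicate 2 of 14 kBq. In a paired fit, with replicate number as the block, 1 gene was called at 0.64 against 0.064 kBq (Psmb8 in liver, 0.70, adjusted p = 0.042) in place of 0, and medulla had 5 calls in place of 4, Tap1 at 42 kBq (adjusted p = 0.0421) being added; cortex Psmb10 stayed called (adjusted p = 0.0284). In 11 of 20 comparisons every array correlated best with its own number. Recomputed values of the 8 called differences lost the call in 35 cases, all with the same direction.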

Other observations

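Further genes of the pathway changed in kidney medulla at 1.8 kBq, where 26.6% of all probes were called, 13.4% as higher. These genes were chosen after their values were seen, so they do not set a part of the pathway apart. The interferon gamma receptor genes rose, Ifngr2 by 1.43 and Ifngr1 by 0.37 on the log2 scale, while Jak2, a kinase that acts at that receptor, fell by 0.78. Psme2, a subunit of the interferon-inducible proteasome activator, fell by 0.49, and Sec61a1, of the channel through which proteins enter the endoplasmic reticulum, rose by 0.30. The interferon-inducible GTPase genes Irgm1 and Ifi47 rose by 0.42 and 0.79.

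In liver at 1.8 kBq Cd274, which encodes the checkpoint ligand PD-L1, rose by 1.06 and Irf2 rose by 0.51, while Stat2 fell by 0.58 and the peptidase gene Blmh fell by 0.62. At 42 kBq Irf2 rose by 0.47, Gbp2 by 0.84 and Ifit3 by 0.67 in liver. In spleen Calr fell by 0.92 at 14 kBq. Of all probes, 3.92% were called in liver at 1.8 kBq, 3.53% in liver at 42 kBq and 3.3% in spleen at 14 kBq.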
